A study of Mus musculus with 8 samples.

Results

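Mitochondrial protein import and quality control genes were examined in RNA of whole liver on Illumina mouse bead arrays. The livers came from 4 control mice and from 4 mice with a liver knockout of Mfn1 (Mfn1 LKO). The group was set by gene name: every gene whose symbol in the platform annotation starts with Tomm or Timm followed by a digit, and 16 named chaperone, peptidase, protease and prohibitin genes. It held 36 of the 16593 named genes on the array, with 54 of the 25697 probes. Of the 16 names, Lonp1 and Afg3l2 are carried by no probe in the annotation used here. All mice were of the strain C57Bl6/Ntac, had 8 weeks of high fat diet and a 6 hour fast. Controls (animals 641, 658, 661 and 663) are labelled Mfn1 Wildtype and the others (637, 638, 651 and 701) Mfn1 LKO. AlbCre, a Cre recombinase driven by the albumin promoter and so active in hepatocytes, stands in the titles of both groups, so whether the controls carried Cre is not settled by the labels, and any effect of Cre may be part of every difference below. Age and sex are not given in the labels.

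Nearly all mitochondrial proteins are made in the cytosol and imported. The TOM complex receives them at the outer membrane, small Tim chaperones carry membrane proteins across the intermembrane space to the TIM22 complex, and the TIM23 complex threads proteins with a presequence into the matrix, where the Hspa9 motor pulls them in. There the processing peptidase Pmpca-Pmpcb cuts off the presequence, the chaperonin Hspd1-Hspe1 (Hsp60 and Hsp10) folds the protein, and proteases such as Lonp1, Clpp-Clpx and the membrane-bound Afg3l2-Spg7 remove what is damaged. Transcripts of Hspd1, Hspe1, Hspa9, Lonp1 and Clpp are the classical readouts of the mitochondrial unfolded protein response in mammalian cells. Liver is rich in mitochondria, and mitofusin 1 joins their outer membranes.

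Of the 36 genes, 31 had a probe above its array's median in at least 4 of the 8 arrays and were tested. The others, Phb, Timm22, Timm23, Timm8a2 and Tomm20, had signals no higher than the 47.0th percentile of the probes and are described apart. Values are log2 signals after background correction and quantile normalization, and fold changes are Mfn1 LKO over control. In limma over all 8815 genes no member had an adjusted p under 0.05, where 0.0113% of all genes, Mfn1 alone, did. Mfn1 gave -1.54 (SE 0.064, adjusted p = 4.05e-06), with 8.64, 8.69, 8.58 and 8.57 in controls and 7.22, 7.06, 7.09 and 6.95 in Mfn1 LKO livers. At an unadjusted p under 0.05 there were 5 members, Hspe1, Pmpcb, Hspd1, Tomm70a and Timm8a1, all higher in Mfn1 LKO livers, against 10.6% of all genes (5.85% higher, 4.73% lower). These 5 are 16.1% of the 31, and the smallest adjusted p among them was 0.206. In the same 5 the lowest Mfn1 LKO liver lay above the highest control, where 6.11% of all genes had groups that did not overlap and 2.92% did so on the higher and 3.2% on the lower side.

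**Figure D1:**
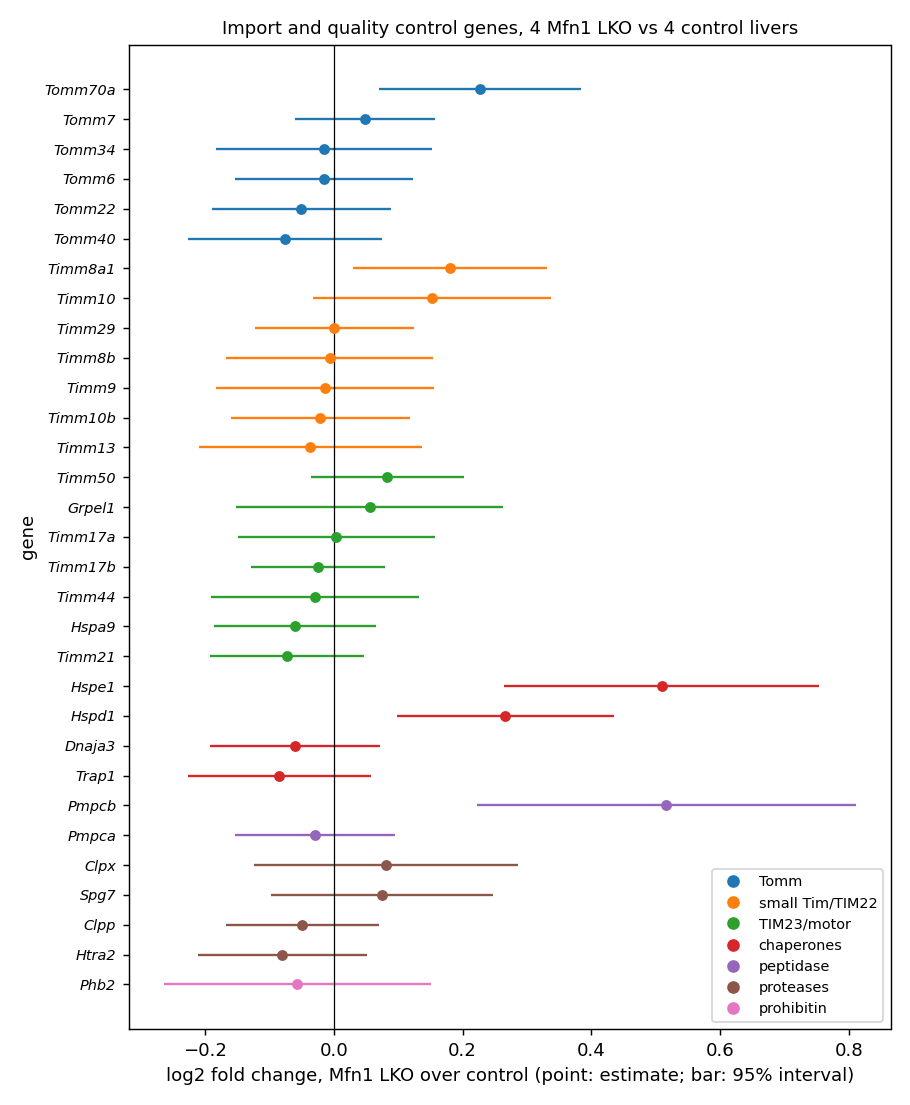
Log2 fold change (Mfn1 LKO over control, x axis) of the 31 tested genes (y axis), with points for the estimates, bars for 95% intervals and colours for the role. Hspe1, Hspd1, Pmpcb, Tomm70a and Timm8a1 have intervals above 0, and the other 26 lie between -0.08 and 0.15.

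The other 26 members lay between -0.08 and 0.15 on the log2 scale. In all, 25 of the 31 moved by under 0.1 in size, and the 95% intervals of 29 lay within a 1.5-fold change either way. Hspe1 and Pmpcb were the exceptions. The median log2 fold change of the 31 was -0.02 and their mean 0.05, so the 2 differ in sign, and the median of all genes was -0.01. Of the 31, 13 were higher and 18 lower, which is 41.9% higher where 44.6% of all genes were. The median SE of a member was 0.068 and that of all genes 0.067. Where a signal lies near the array's lowest values (5.65, with a median of 6.02 over all probes) the fitted interval may miss a change in the transcript.

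Among the matrix folding chaperones, 2 of 4 genes, the pair that makes up the chaperonin, had an unadjusted p under 0.05. Hspe1 encodes Hsp10, the lid of the chaperonin. Controls 641, 658, 661 and 663 had log2 signals of 8.92, 8.64, 8.69 and 8.33. Mfn1 LKO livers 637, 638, 651 and 701, in the order used throughout, had 9.03, 9.17, 9.23 and 9.20. Every Mfn1 LKO liver was above every control, control 663 was lowest, and the spread was wider in controls (SD 0.24) than in Mfn1 LKO livers (SD 0.091, n = 4 each). The difference was 0.51 (95% interval 0.26 to 0.75), a 1.42-fold level (interval 1.20 to 1.69), with limma adjusted p = 0.206. Hspe1 kept an unadjusted p under 0.05 whichever of the 8 livers was left out and in all 12 other settings tried.

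Hspd1 encodes Hsp60, the barrel of the chaperonin, and its 2 probes gave opposite signs. The brighter probe read 11.16, 11.17, 10.97 and 10.86 in controls and 11.35, 11.25, 11.37 and 11.27 in Mfn1 LKO livers, again with no overlap. Its difference was 0.27 (95% interval 0.10 to 0.43, limma adjusted p = 0.270). The dimmer probe, still at the 94.5th percentile of all probes, read 9.96, 9.51, 9.56 and 9.63 in controls and 9.63, 9.68, 9.38 and 9.57 in Mfn1 LKO livers. These overlap, and the difference was -0.10 (SE 0.097, limma adjusted p = 0.873 in the fit over every probe). With the mean of both probes Hspd1 gave 0.08, with an unadjusted p above 0.05. The files do not say which part of the transcript each probe reads.

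Hspd1 and Hspe1 were correlated over the 8 livers. In both genes the groups did not overlap, so a correlation over all 8 livers includes that shared difference. The permutations crossed the groups, so their p-values do not measure variation within a group. Of 10 pairs of partner proteins, 6 had both genes past the filter, and Hspd1 with Hspe1 was the only pair of the 6 with an adjusted permutation p under 0.05 for Pearson's r (r = 0.890, exact permutation p = 0.0031, adjusted p = 0.0183; Spearman's rho = 0.857, exact permutation p = 0.0107, adjusted p = 0.0643; n = 8). This used the brighter Hspd1 probe, and with the mean of both probes r was 0.652 (exact permutation, adjusted p = 0.503). It was 0.774 without control 663 (exact permutation, adjusted p = 0.200) and 0.897 without control 661 (exact permutation, adjusted p = 0.0486). Without both, the 2 livers farthest from the Hspd1 median, r was 0.690 (exact permutation p = 0.129, n = 6). The call therefore ended with the mean of the probes or without control 663, while r stayed above 0. It also ended with arrays scaled to a common 75th percentile (r = 0.849, exact permutation, adjusted p = 0.0717). On deviations from the group means, which leave the group difference out, r was 0.659, and no p-value was computed for it. Both genes spread more in controls (SD 0.15 for Hspd1, 0.24 for Hspe1) than in Mfn1 LKO livers (0.057 and 0.091). Controls therefore weigh more in this r. Among Mfn1 LKO livers, 637 had the lowest Hspe1 (9.03) but more Hspd1 (11.35) than 638 (11.25) and 701 (11.27). The r of 0.659 therefore does not show that the genes vary together within the Mfn1 LKO group. The other 5 pairs, Clpp with Clpx, Pmpca with Pmpcb, Hspa9 with Grpel1, Timm9 with Timm10 and Timm8b with Timm13, had r between -0.232 and 0.148, with exact permutation p-values from 0.598 to 0.963 (0.963 for all 5 after adjustment). Without the 2 livers farthest from the median of the first gene the r of these 5 pairs lay between -0.535 and 0.445 (n = 6), and on deviations from the group means between -0.155 and 0.208.

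Trap1, a matrix relative of Hsp90, gave -0.08 (95% interval -0.23 to 0.06). Dnaja3, a co-chaperone of Hspa9, gave -0.06 (95% interval -0.19 to 0.07). Neither had an unadjusted p under 0.05 (adjusted p = 0.686 and 0.778 with limma), and in both the groups overlapped.

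The processing peptidase is a dimer, and its 2 genes were read very differently by the array. Pmpcb, the catalytic subunit, read 7.92, 7.89, 7.72 and 7.34 in controls and 8.01, 8.40, 8.18 and 8.35 in Mfn1 LKO livers. Control 663 was again lowest, and Mfn1 LKO liver 637 lay 0.09 above the highest control. The difference was 0.52 (95% interval 0.22 to 0.81), a 1.43-fold level (interval 1.17 to 1.75), with limma adjusted p = 0.259. Without control 663 it was 0.39. Pmpca, the subunit that recognises the substrate, gave -0.03 (95% interval -0.15 to 0.09), but its probe read 6.18 in controls and 6.15 in Mfn1 LKO livers, near the median of all probes, so the limit on dim signals given above holds for it.

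**Figure D2:**
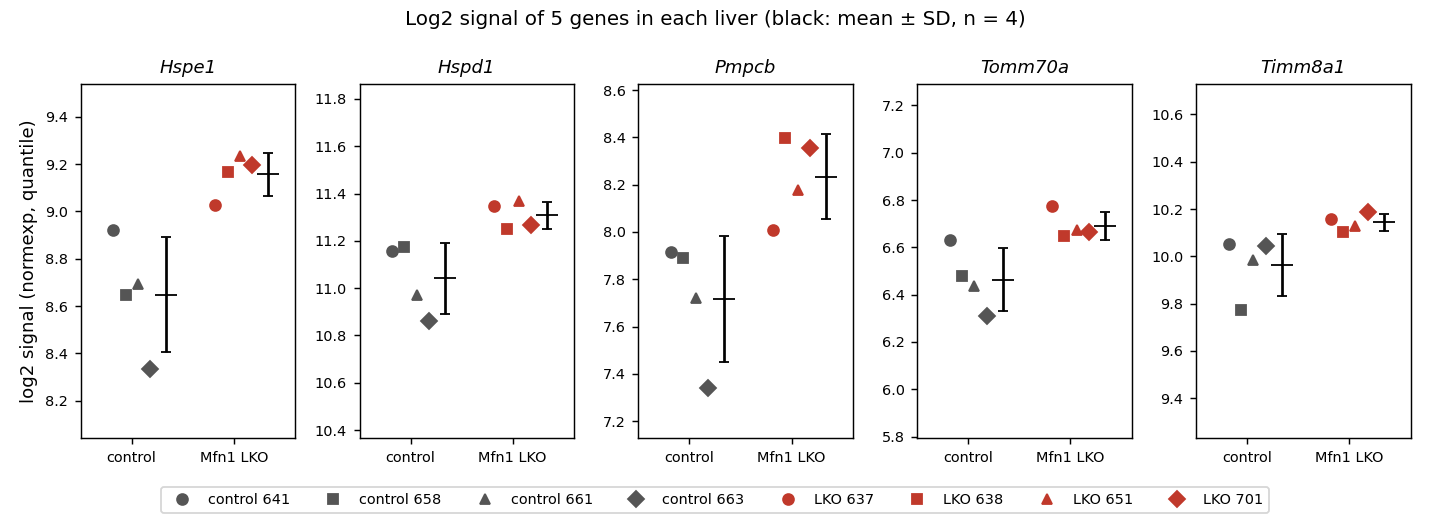
Log2 signal (y axis, 1.5 units in each panel) of Hspe1, Hspd1 (brighter probe), Pmpcb, Tomm70a and Timm8a1 in each control liver (grey) and Mfn1 LKO liver (red), with the mean ± SD of 4 in black. All 4 Mfn1 LKO livers lie above all 4 controls in each panel, and control 663 is lowest in 4 of the 5.

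At the outer membrane, 6 of the 7 Tomm genes passed the filter and 1 of them, Tomm70a, had an unadjusted p under 0.05. Tomm70a encodes the receptor for carrier proteins that arrive with cytosolic chaperones. It read 6.63, 6.48, 6.44 and 6.31 in controls and 6.78, 6.65, 6.67 and 6.67 in Mfn1 LKO livers, so the lowest Mfn1 LKO liver lay 0.02 above the highest control. The difference was 0.23 (95% interval 0.07 to 0.38, limma adjusted p = 0.306), at the 69.6th percentile of the signal. This is a dim signal (mean 6.46 in controls), so the limit on dim signals given above holds for Tomm70a too. The difference was 0.36 with a smaller offset in the background correction and 0.16 without that correction. The pore subunit Tomm40 gave -0.08, the central receptor Tomm22 -0.05, the small subunits Tomm6 -0.02 and Tomm7 0.05, and Tomm34, a cytosolic co-chaperone, -0.02. Their intervals together spanned -0.23 to 0.16.

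Tomm20, the receptor for presequences, is the one dim member whose groups did not overlap. Its probe read 6.01, 5.93, 5.88 and 5.94 in controls and 5.84, 5.82, 5.83 and 5.81 in Mfn1 LKO livers, a difference of -0.11 at the 27.2th percentile of the signal. In the limma fit over every probe its unadjusted p was 0.019 and its adjusted p 0.478. In that fit 8.14% of probes had an unadjusted p under 0.05, and Tomm20 was the only member lower at such a p. The share of probes without overlap was not counted there. Over the tested genes it was 3.2% on the lower side. Such signals cannot be told from the array's background with the files at hand.

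The small Tim chaperones and the TIM22 complex, which insert carriers and other membrane proteins, had 7 of 9 genes past the filter. Timm8a1 was the 1 with an unadjusted p under 0.05. It read 10.05, 9.77, 9.98 and 10.04 in controls and 10.16, 10.10, 10.13 and 10.19 in Mfn1 LKO livers, a difference of 0.18 (95% interval 0.03 to 0.33, limma adjusted p = 0.377). Here control 658 was lowest and the Mfn1 LKO livers were close together (SD 0.037). Its unadjusted p was above 0.05 without Mfn1 LKO liver 701 and with arrays scaled to a common median or 75th percentile. Timm10 read 8.12, 7.84, 7.87 and 7.95 in controls and 8.11, 7.93, 8.13 and 8.24 in Mfn1 LKO livers, a difference of 0.15 with overlapping groups (limma adjusted p = 0.563). Timm9, which forms a hexamer with Timm10, gave -0.01, and Timm8b -0.01, Timm10b -0.02, Timm13 -0.04 and Timm29 0.00. Timm22, the channel itself, gave 0.09 at the 47.0th percentile (limma adjusted p = 0.683 in the fit over every probe), and the 2 probes of Timm8a2 gave -0.01 and 0.02 near the lowest signals.

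Of the TIM23 complex and its motor, 7 of 8 genes passed the filter. The 7 that passed lay between -0.07 and 0.08, none with an unadjusted p under 0.05, and their intervals together spanned -0.19 to 0.26. Hspa9, the mitochondrial Hsp70 of the motor, was the brightest member at 12.30, 12.19, 12.22 and 12.33 in controls and 12.18, 12.12, 12.27 and 12.25 in Mfn1 LKO livers. The difference was -0.06 (95% interval -0.19 to 0.07, limma adjusted p = 0.764), and a dimmer Hspa9 probe gave -0.11. Its nucleotide exchange factor Grpel1 gave 0.06, and varied more in Mfn1 LKO livers (9.58 to 10.06) than in controls (9.72 to 9.87). Timm50, the presequence receptor of the complex, gave 0.08, Timm44, which tethers the motor, -0.03, the channel subunits Timm17a and Timm17b 0.00 and -0.02, and Timm21, which docks to the TOM complex, -0.07. All 4 Timm21 probes were lower, between -0.10 and -0.05, and none had an unadjusted p under 0.05. The channel Timm23 had 2 probes, at the 33.7th and 17.2th percentile, which gave 0.04 and 0.02.

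Of the proteases and prohibitins, none of the 5 genes past the filter had an unadjusted p under 0.05. Clpp, the proteolytic chamber of the ClpXP protease, read 8.54, 8.55, 8.52 and 8.56 in controls and 8.58, 8.49, 8.39 and 8.53 in Mfn1 LKO livers, a difference of -0.05 (95% interval -0.17 to 0.07). The controls were within 0.03 of each other. Clpx, its unfoldase, had 2 probes of similar brightness and opposite sign. The brighter read 8.91, 9.04, 9.08 and 8.63 in controls and 9.05, 8.99, 8.93 and 9.02 in Mfn1 LKO livers and gave 0.08. The other read 8.70, 8.69, 9.23 and 8.73 in controls and 8.44, 8.67, 8.79 and 8.26 in Mfn1 LKO livers and gave -0.30 (SE 0.137, limma adjusted p = 0.628 in the fit over every probe). Spg7, paraplegin of the inner membrane protease, gave 0.07 (95% interval -0.10 to 0.25). Htra2, a protease of the intermembrane space, gave -0.08 (95% interval -0.21 to 0.05) at a dim signal of 6.44 and 6.36. Phb2, which builds ring-shaped scaffolds in the inner membrane with Phb, read 9.84, 9.79, 9.88 and 9.89 in controls and 9.86, 9.76, 9.53 and 10.03 in Mfn1 LKO livers. Its mean difference was -0.06 (95% interval -0.26 to 0.15), with Mfn1 LKO livers 638 and 651 below all controls and 701 above them. Phb gave -0.03 at the 19.2th percentile of the signal.

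**Figure D3:**
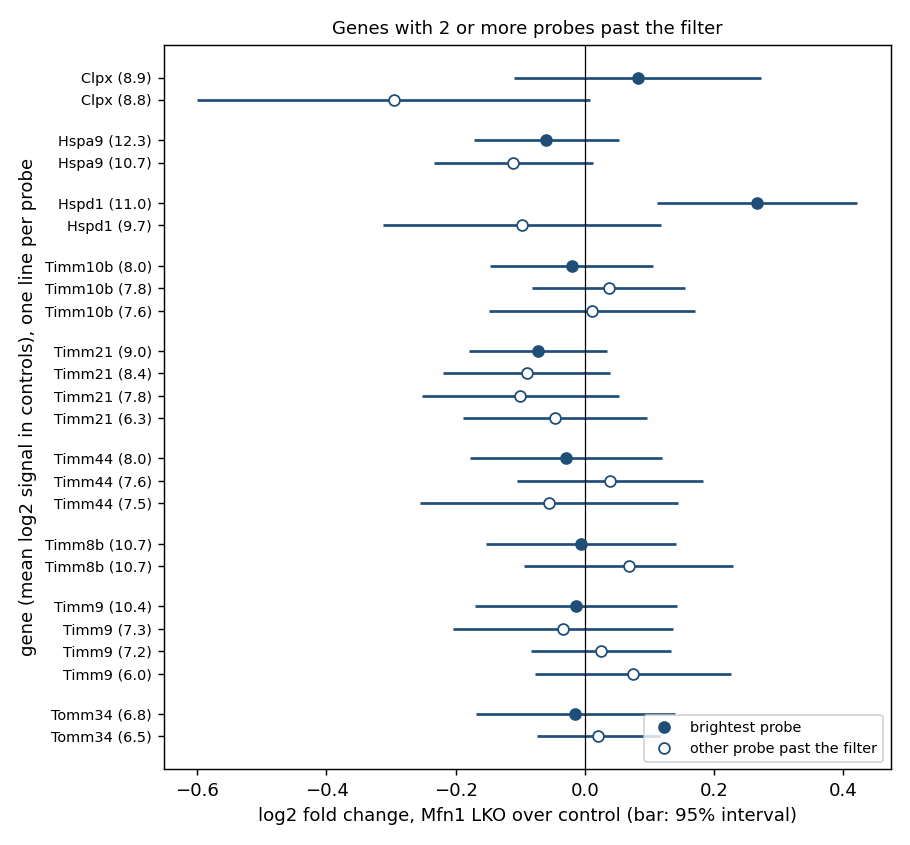
Log2 fold change (x axis, bars for 95% intervals) of each probe past the filter for the 9 genes with 2 or more such probes, with the mean control signal in brackets. In 7 of the 9, all but Hspa9 and Timm21, the probes lie on both sides of 0, and Hspd1 and Clpx have the widest gap between probes.

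The upstream sequences of Hspe1, Pmpcb, Tomm70a and Timm8a1 are shown because these genes, with Hspd1, are those with the lowest p, and that of Timm9 because it holds a motif of Hspe1. They are the 250 bases before each RefSeq gene start (build GRCm38.p6), written 5′ to 3′ on the gene's strand. The windows lie at chr1:55087898-55088147 (+) for Hspe1, chr5:21736910-21737159 (+) for Pmpcb, chr16:57121464-57121713 (+) for Tomm70a, chrX:134541671-134541920 (-) for Timm8a1 and chr12:71136676-71136925 (-) for Timm9. Capitals mark GAANNTTC, the same preceded by TTCNN, and CCGGAAG, each searched on both strands. The first is a pair of the units that heat shock factor binds, and the longer form, which contains it, has 3 units. The last is the core of sites of ETS factors such as GABP.
Hspe1: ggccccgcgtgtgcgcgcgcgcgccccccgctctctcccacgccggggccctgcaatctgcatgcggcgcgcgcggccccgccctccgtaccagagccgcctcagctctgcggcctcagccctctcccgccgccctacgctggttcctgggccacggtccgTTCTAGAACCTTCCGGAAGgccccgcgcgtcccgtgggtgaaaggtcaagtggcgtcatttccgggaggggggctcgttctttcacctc
Pmpcb: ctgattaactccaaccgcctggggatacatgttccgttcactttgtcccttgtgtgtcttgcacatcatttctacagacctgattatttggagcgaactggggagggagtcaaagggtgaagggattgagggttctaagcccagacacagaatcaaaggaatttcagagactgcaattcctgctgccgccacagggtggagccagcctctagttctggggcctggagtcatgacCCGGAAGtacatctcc
Tomm70a: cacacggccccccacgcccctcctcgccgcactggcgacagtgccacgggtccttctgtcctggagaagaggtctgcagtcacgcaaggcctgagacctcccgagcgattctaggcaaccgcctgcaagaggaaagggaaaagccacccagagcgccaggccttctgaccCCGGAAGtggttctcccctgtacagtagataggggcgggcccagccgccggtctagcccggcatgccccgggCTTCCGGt
Timm8a1: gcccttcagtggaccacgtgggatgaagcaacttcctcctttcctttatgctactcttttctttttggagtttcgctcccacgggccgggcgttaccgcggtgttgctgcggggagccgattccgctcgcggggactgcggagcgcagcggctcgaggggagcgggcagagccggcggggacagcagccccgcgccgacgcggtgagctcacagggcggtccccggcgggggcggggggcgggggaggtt
Timm9: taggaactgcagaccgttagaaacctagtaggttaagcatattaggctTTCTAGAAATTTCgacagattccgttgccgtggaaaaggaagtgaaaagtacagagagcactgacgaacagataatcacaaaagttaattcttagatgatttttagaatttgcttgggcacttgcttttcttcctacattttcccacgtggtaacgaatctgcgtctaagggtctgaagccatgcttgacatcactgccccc

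Hspd1 and Hspe1 are neighbours on opposite strands. An annotated Hspd1 start lies 216 bases before that of Hspe1, on the other strand, within the Hspe1 sequence shown, and the other annotated Hspd1 start lies 95 bases past the Hspe1 start. The capitals of the Hspe1 sequence, TTCTAGAACCTTCCGGAAG, therefore lie between one Hspd1 start and the Hspe1 start. They hold both motif types, which overlap there. A window of 300 bases (250 before and 50 after the start) was available in the RefSeq table for 32 members. Hspa9, Htra2, Timm21 and Tomm7 had none and were not searched. The form with 3 units was found in 3 of the 32, Hspd1, Hspe1 and Timm9. It was in 0.486% of the 7199 tested genes with a window (0.603% of all 32851 windows). The Hspd1 and Hspe1 matches are the same bases, since their windows share 285 bases, and the window of the other Hspd1 start holds no match. GAANNTTC was in the same 3 members, in 7.08% of tested genes and in 7.86% of windows. CCGGAAG was in 17 of the 32 members (53.1%), in 19.9% of tested genes and in 8.86% of windows. It was in Hspe1, Hspd1, Pmpcb and Tomm70a of the 5 members with a low p and not in Timm8a1, and also in members near 0 such as Pmpca, Clpp, Phb2, Tomm22 and Timm8b. Timm9 holds the heat shock motif and gave -0.01. A match describes letters and is not a site shown to be bound.

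Of the other genes of the same pathway, taken from lists, none had an adjusted p under 0.05. The counts at an unadjusted p under 0.05 below stand against 5.85% of all genes higher and 4.73% lower. Of 14 further import genes, 1 was higher and 1 lower at an unadjusted p under 0.05, with a median of -0.03. Timmdc1, a complex I assembly factor of the Tim17 family, gave 0.20 (limma adjusted p = 0.417). Gfer and Chchd4, the pair that oxidises imported proteins of the intermembrane space, gave -0.14 and -0.13 (limma adjusted p = 0.449 and 0.523). Of 14 further quality control genes 1 was higher at an unadjusted p under 0.05 and none lower, with a median of -0.01. It was Yme1l1, an inner membrane protease that processes Opa1, which read 7.31, 7.09, 7.11 and 6.93 in controls and 7.37, 7.36, 7.51 and 7.37 in Mfn1 LKO livers. Its groups did not overlap and the difference was 0.29 (95% interval 0.11 to 0.47, limma adjusted p = 0.270). Stoml2 and Pink1 gave -0.11 each (limma adjusted p = 0.547 and 0.594).

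Of 8 regulators linked to the mitochondrial unfolded protein response 7 were lower and 1 higher, with a median of -0.08. Over all genes 44.6% were higher. In all 8 the groups overlapped, and some varied widely between livers (SD 0.38 for Cebpb in controls, 0.40 for Atf5 in Mfn1 LKO livers). Eif2ak2, the kinase PKR, gave -0.16 (limma adjusted p = 0.452), Cebpb -0.24 (0.646) and Ddit3, which encodes CHOP, -0.07 (0.675), and Eif2ak2 alone had an unadjusted p under 0.05. Atf5 gave -0.09 with a wide interval (-0.48 to 0.29) and Atf4 -0.06. Of 14 cytosolic heat shock genes 8 were higher and 6 lower, with a median of 0.03. Hspa4 (0.15, limma adjusted p = 0.438) and Cct5 (0.13, 0.458) had an unadjusted p under 0.05, Dnaja1 gave 0.11 (0.620), and Hspa8, the constitutive cytosolic Hsp70, gave 0.04. Mitochondrial ribosomal protein genes, another nuclear-encoded set, had 6 of 70 higher and 1 lower at an unadjusted p under 0.05, with a median of 0.01 and a range of -0.17 to 0.45. The 3 with the lowest p were Mrpl20 (0.45), Mrps15 (0.32) and Mrpl52 (0.39).

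**Figure D4:**
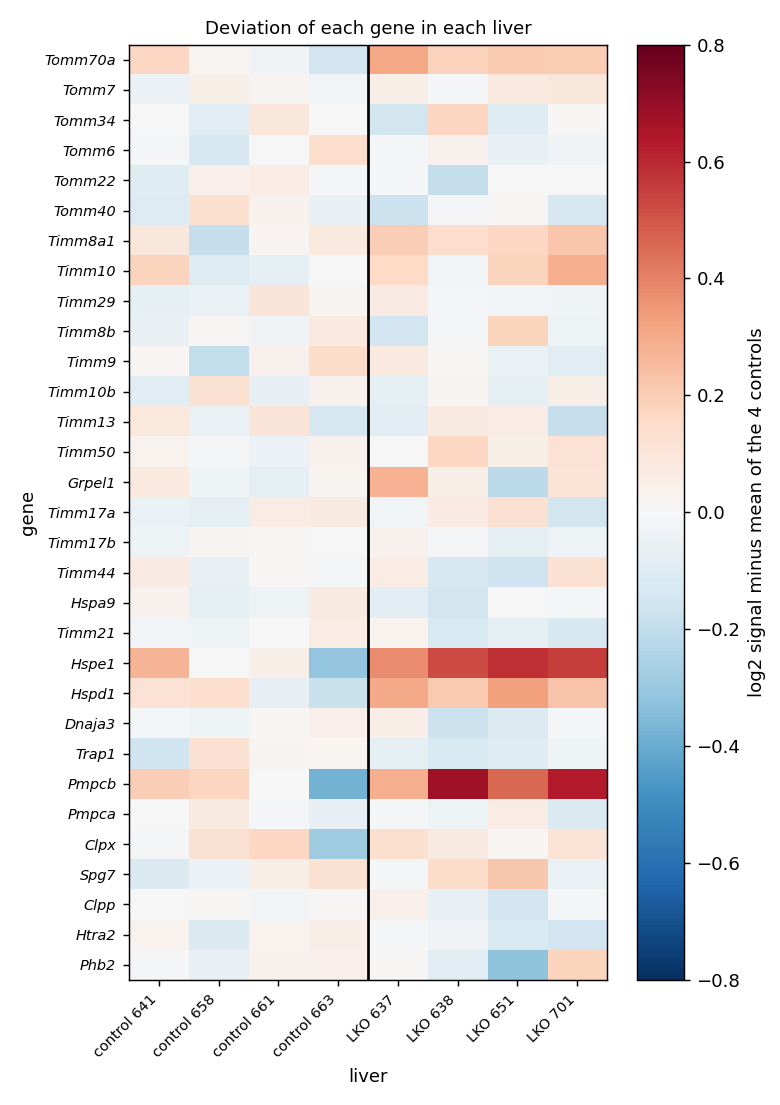
Log2 signal minus the mean of the 4 controls (colour, from -0.8 to 0.8) for the 31 tested genes (rows, grouped by role) in each liver (columns, with controls left of the line). Hspe1, Hspd1, Pmpcb and Tomm70a are low in control 663 and high in the Mfn1 LKO livers, and most other rows are pale.

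The livers did not move alike across the members. Among controls, animal 658 had the lowest value for 12 of the 31 genes, 641 for 9, 663 for 7 and 661 for 3, and control 663 had the highest value for 12. Among Mfn1 LKO livers the lowest value fell on each animal for 6 to 9 genes. The mean deviation over the 31 genes lay between -0.041 and -0.0085 in controls and between 0.012 and 0.031 in Mfn1 LKO livers, a mean that includes the 5 genes with a low p, while 18 of the 31 genes were lower. That of the TIM23 group overlapped (-0.035 to 0.040 against -0.046 to 0.045), as did that of the proteases (-0.028 to 0.052 against -0.033 to 0.031). The Tomm group, which holds Tomm70a, overlapped too (-0.027 to 0.021 against -0.0067 to 0.018). So did the small Tim and TIM22 group, which holds Timm8a1 (-0.085 to 0.015 against 0.0073 to 0.043). That of the folding chaperones, which holds Hspe1 and Hspd1, did not (-0.19 to -0.025 against 0.029 to 0.10), nor did that of the processing peptidase, which holds Pmpcb (-0.34 to 0.00080 against 0.014 to 0.20). These last means are over 4 and 2 genes and include the genes with a low p, so they add no separate evidence.

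Marker genes of other cells were read in the same livers. Of 16 Kupffer cell and macrophage markers past the filter (17 have a probe) all 16 were higher, 7 of them at an unadjusted p under 0.05. Over all genes 44.6% were higher, and 5.85% were higher at an unadjusted p under 0.05. None of the 16 markers had an adjusted p under 0.05 with limma, and only in 1, Vsig4, did the groups not overlap. The median of the 16 was 0.27. Their mean deviation lay between -0.25 and 0.027 in controls and between -0.15 and 0.39 in Mfn1 LKO livers. The defining markers Adgre1, Vsig4 and Clec4f were well measured (control means of 7.46, 9.22 and 8.53). They gave 0.75, 0.54 and 0.36 (limma adjusted p = 0.270, 0.280 and 0.355), with overlapping groups in Adgre1 and Clec4f. Neutrophil markers (4 past the filter) had a median of 0.25, lymphocyte (4) 0.05, endothelial (10) 0.01, stellate and matrix (10) 0.05 and bile duct markers (2) 0.02. The neutrophil median lies between S100a8 and S100a9 (0.51 and 0.49, groups overlapping) and Elane and Retnlg (0.01 and 0.00). The bile duct median lies between Sox9 (0.15) and Krt7 (-0.11), both dim and without overlap, in opposite directions. The part of these cell types in the members' values was not tested. Of 9 hepatocyte markers 7 were past the filter, between the 62.3th and the 99.9th percentile, and Fgb and Tat were below it. Alb, the albumin gene, was the dimmest of the 7 at a control mean of 6.28, so a dim probe need not mean a low transcript. The mean deviation of the 7 lay between -0.16 and 0.081 in controls and between -0.093 and 0.13 in Mfn1 LKO livers. Control 663 was lowest. In whole liver, fewer cells of a type and less RNA per cell cannot be told apart.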

How the data were processed

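Liver RNA was amplified and biotin-labelled using Illumina TotalPrep reagents, as the labels' protocols state. The deposited table of the authors holds linear signal intensity for 25697 probes on 8 arrays, without detection p-values or control probes. A second deposited table by the authors holds log2 values, which lay within 0.0066 of quantile normalized log2 intensities when set against them. How the arrays were scanned and how either table was made is not given in the sources used.

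Intensities were background-corrected (limma normexp, offset 50), quantile normalized and put on the log2 scale. A probe was kept where 4 or more arrays read it above their own median (12755 probes). Symbols were taken from the GEO platform's annotation (23978 named probes, of which 23962 matched RefSeq by gene ID). Each gene's brightest kept probe was used, which left 8815 genes. Groups came from the titles and were compared with lmFit and eBayes (limma 3.58.1, R 4.3.3), two-sided, Benjamini-Hochberg adjusted over all genes, threshold 0.05. Each array is a different animal by number. The limma p-values set the group difference against the spread between arrays within the groups, with variances moderated over all genes. The number of arrays, 4 per group, limits the precision. Array median intensities were 96.4 to 103.9, and correlations between arrays 0.985 to 0.995. A larger offset shrinks the fold changes of dim genes. A fit over every probe, unfiltered, gave values for single probes.

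Named genes were Mfn1, the 10 members with the smallest p, the unfolded protein response core, the members of the partner pairs, and the 3 genes of smallest p of each pathway list. Other members and genes are named to account for them and were chosen with values known. The members and lists were chosen with earlier results of these data known, and motifs after the values were seen. Alternatives were other background corrections, scalings, filters, probe rules and variance models, array weights, the deposited log2 values and each array left out. Figures used matplotlib 3.10.9 in Python 3.11.15.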

Additional observations from a re-analysis of the deposited data

Results flagged for a closer look

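Within groups of 4, a value far from its fellows was looked for with Dixon's ratio at its 95% critical value in 62 gene-by-group sets, where chance flags about 1 in 20, and 2 were found. Htra2 read 6.32 in control 658 and 6.47 to 6.49 in the other controls (ratio 0.857). Tomm22 read 8.88 in Mfn1 LKO liver 638 and 9.06 to 9.08 in the other Mfn1 LKO livers (ratio 0.912).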

How the results depend on the processing

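No paired analysis was possible because the animal numbers of the 2 groups are not shared. Under the 12 other settings and with each liver left out, no member had an adjusted p under 0.05 with limma. The number at an unadjusted p under 0.05 was 4 to 6 over the settings and 4 to 7 with 1 liver left out. The share of all genes at that p moved too. It was 4.74% with a common median, 7.33% with a common 75th percentile and up to 12.9% with array weights. With 1 liver left out it was 7.02% to 12.4%. Hspe1, Pmpcb and Tomm70a were among the members at that p each time, and Hspd1 in all but the mean of probes. Timm8a1 was among them in all but a common median, a common 75th percentile and the set without Mfn1 LKO replicate 701. With no filter Tomm20, lower in Mfn1 LKO livers, was among them too. The log2 fold change of Mfn1 lay between -1.83 and -1.33 over the settings and between -1.59 and -1.51 with 1 liver left out. The median of the members turned above 0 with a common median (0.0019), cyclic loess (0.0021) and the mean of probes (0.0011), and lay between -0.018 and 0.0054 with 1 liver left out, so it has no settled sign. Genes called over the whole table were 2 with no filter, 2 with array weights and 3 probes with every probe tested, and 1 to 3 with 1 liver left out (3 without Mfn1 LKO replicate 701). Partner pairs, whose alternatives were chosen after seeing the data, numbered 0 past the threshold with a common 75th percentile or the mean of probes, and 0 to 1 with 1 liver left out (0 without control 663). Where probes were averaged or left out the construction sets the change, and otherwise the cause was not tested. Dim probes such as those of Tomm40, Pmpca, Timm13, Timm17b and Tomm20 lie too near background for a small change to be read.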
